A study of Homo sapiens with 9 samples.

Results

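The 58 genes described here encode cell junction and polarity proteins: cadherins, catenins, nectins, tight junction and desmosome components, and the polarity complexes with their scaffolds. They were taken from a list of gene names that was chosen with earlier results of these data known. Their shares beside those of all protein-coding genes are therefore descriptions of the chosen list. A QKI-5 peak was assigned to a gene when it lay on the gene's strand and its centre fell inside the gene's protein-coding span. Of these 58 genes, 31 held at least 1 peak, and together they held 313 of the 24037 peaks of the deposited list. The measurement was HITS-CLIP, in which ultraviolet light fixes a protein to the RNA it touches, an antibody recovers the protein and the attached RNA fragments are sequenced.

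The libraries were made from mesHMLE cells, a mesenchymal derivative of HMLE, an immortalised line of human mammary epithelial cells. The labels name the source as TGF-beta-treated HMLE cells and give 2.5 ng/ml of TGF-β1 for at least 14 days to induce EMT in HMLE, whereas mesHMLE cells were grown in the same medium with no further TGF-β1. All 9 libraries came from this 1 line, crosslinked at 600 mJ/cm2. The QKI-5 antibody gave 7 libraries, 3 from the gel region of the QKI monomer and 4 from that of the dimer, and for 1 dimer library SuperScript IV replaced AffinityScript as reverse transcriptase. The other 2 libraries were size-matched input. All are numbered as technical replicates, and peaks were called after pooling, so each peak has 1 height with no replicate error, and no test was run. Epithelial cells were not assayed. The list holds no RNA levels, so a gene without QKI-5 contact and a gene with little RNA cannot be told apart, and the identity of the cells could not be checked against marker levels.

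QKI is an RNA-binding protein of the STAR family, and QKI-5 is its nuclear isoform. It recognises ACUAAY, with Y standing for C or U, usually together with a nearby UAAY, and it acts on the splicing of many pre-mRNAs from the introns that flank an exon. Adherens junctions join neighbouring cells through cadherins that are tied to actin by catenins, tight junctions seal the space between epithelial cells, and desmosomes anchor intermediate filaments. The Par, Crumbs and Scribble complexes set the apical and basolateral sides of an epithelial cell. Many of these proteins are modular scaffolds whose transcripts are alternatively spliced, and junctions and polarity are remodelled in EMT.

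The peaks below are shown because they carry ACTAAC, the DNA form of the QKI motif, and are the tallest such peaks outside UTRs in 8 of the genes described. Each line is the whole peak on the strand of its gene, 5′ to 3′, on hg19. Capitals mark ACTAAC or ACTAAT.
ERBIN, chr5:65351196-65351283, plus strand, height 109: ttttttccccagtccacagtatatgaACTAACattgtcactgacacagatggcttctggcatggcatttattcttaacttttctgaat
DLG1, chr3:196777520-196777589, minus strand, height 80: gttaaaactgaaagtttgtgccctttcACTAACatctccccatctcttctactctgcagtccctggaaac
CTNNA1, chr5:138223515-138223591, plus strand, height 55: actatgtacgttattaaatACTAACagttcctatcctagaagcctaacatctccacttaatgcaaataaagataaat
PLEKHA5, chr12:19317895-19317980, plus strand, height 46: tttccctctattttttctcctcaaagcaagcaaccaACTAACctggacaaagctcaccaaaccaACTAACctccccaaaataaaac
PARD3, chr10:34625191-34625256, minus strand, height 32: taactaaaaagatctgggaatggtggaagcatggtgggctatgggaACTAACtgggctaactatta
MAGI1, chr3:65363401-65363531, minus strand, height 31: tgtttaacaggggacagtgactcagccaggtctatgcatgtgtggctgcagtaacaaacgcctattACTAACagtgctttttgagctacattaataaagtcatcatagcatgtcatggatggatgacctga
CDH13, chr16:82772497-82772560, plus strand, height 28: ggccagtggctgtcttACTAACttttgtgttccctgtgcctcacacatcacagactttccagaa
EPB41L2, chr6:131312358-131312432, minus strand, height 26: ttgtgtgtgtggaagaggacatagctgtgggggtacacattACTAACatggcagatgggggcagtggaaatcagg

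A second set shows peaks at exons that the annotation lists as skipped in another protein-coding transcript, called cassette exons below. From the CTNND1 peaks only the 30 bases around the motif are given, because these peaks lie in the 3′UTR of another transcript.
CTNND1, chr11:57583189-57583218, plus strand, in a peak of height 22: gatatgACTAACACTAACtgatctactttc
CTNND1, chr11:57583350-57583379, plus strand, in a peak of height 109: gtctctactcatACTAACaaattgcatgtg
ERBIN, chr5:65364736-65364838, plus strand, height 75: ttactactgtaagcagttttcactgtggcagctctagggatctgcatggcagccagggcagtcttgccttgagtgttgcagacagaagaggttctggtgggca
The first CTNND1 site holds 2 motifs end to end, and the PLEKHA5 peak holds 2 motifs set in the same letters, accaACTAACct. The PARD3 peak of the first set also lies just upstream of a cassette exon. No TJP1 peak lay within 250 nt of a cassette exon.

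QKI-5 peaks were present on 53.4% of the junction and polarity genes (31 of 58, 95% Wilson interval 40.8 to 65.7%), where 23.6% of the 20163 protein-coding genes had a peak. The 6 genes grouped with the Scribble complex, among them ERBIN with 50 peaks, held 102 of the peaks. The band 4.1 genes held 40 and the catenins 39, whereas the 9 tight junction genes held 5. At least 10 peaks lay on ERBIN, DLG1, EPB41L2, CTNNA1, PKP4, CDH13, PARD3, CTNND1, AFDN and MAGI1. These are 10 of the 58 genes (17.2%, interval 9.64 to 28.9%), against 2.79% of protein-coding genes. ERBIN and DLG1 alone carried 92 of the 313 peaks, or 29.4%, and the 10 genes together carried 73.8%. The 27 genes with no peak were CDH1, CDH3, JUP, NECTIN1, NECTIN2, TJP3, CLDN1, CLDN4, CLDN7, OCLN, CGN, CGNL1, DSP, DSG2, DSC2, PKP2, PKP3, PARD6B, PRKCZ, MPP5 (named PALS1 in the annotation), CRB3, LLGL1, LLGL2, AMOT, EPB41L3, STK11 and MARK1. Neighbouring peaks were often only a few nt apart. Joining peaks within 50 nt of each other, which was chosen after the data were seen, left 230 runs of peaks, of which ERBIN held 32, DLG1 31 and CDH13 17, while EPB41L2, CTNNA1, PKP4 and PARD3 held 14 each.

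**Figure D1:**
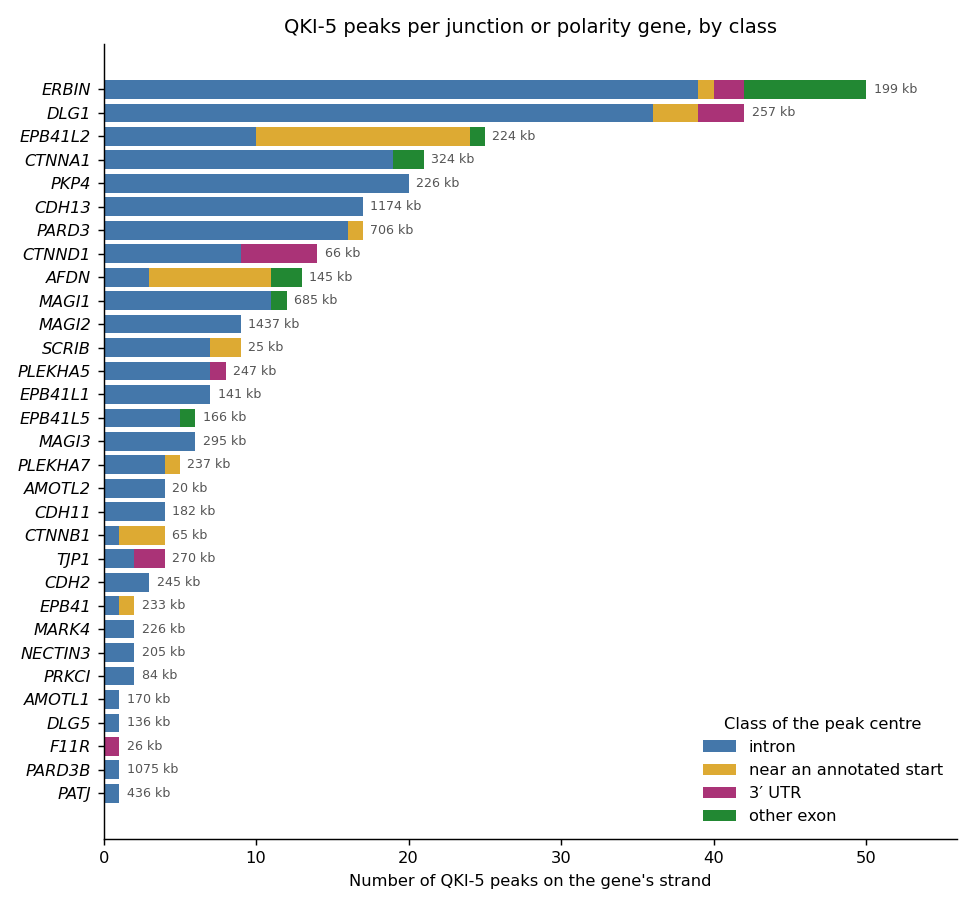
Number of QKI-5 peaks on each of the 31 junction and polarity genes with a peak, as bars split by the class of the peak centre, with the gene's span in kb at the end of the bar. ERBIN (50 peaks) and DLG1 (42) stand at the top, 5 genes have 1 peak, and most peaks of most genes are intronic.

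Gene length moved with the presence of a peak, and its part in the result was not tested. The 31 genes with a peak had a median span of 226 kb, the 27 without one 50.1 kb, and all protein-coding genes 27.2 kb. Among genes over 200 kb, 18 of the 19 junction and polarity genes had a peak (94.7%, interval 75.4 to 99.1%), against 46.0% of protein-coding genes of that size. The exception was EPB41L3, a band 4.1 protein gene of 238 kb. In the 2 classes between 20 and 100 kb, 6 of 22 junction and polarity genes had a peak. That was 27.3% in each class, against 24.8% and 38.5% of protein-coding genes, and those values lie inside the intervals of 9.75 to 56.6%. All 5 junction and polarity genes under 20 kb lacked a peak, where 7.47% of protein-coding genes of that size had one. Per 100 kb of span, the 58 genes held 2.67 peaks and all protein-coding genes 1.61. The highest densities were not on the longest genes: MAGI2, with 1437 kb, had 9 peaks, as many as SCRIB with 24.9 kb, and PARD3B, with 1075 kb, had 1.

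**Figure D2:**
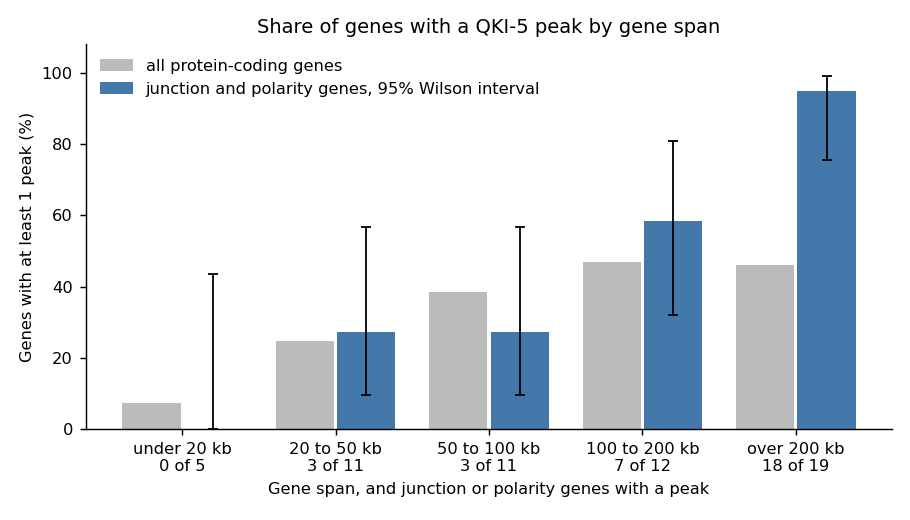
Percentage of genes with at least 1 QKI-5 peak in 5 classes of gene span, for all protein-coding genes (grey) and the junction and polarity genes (blue, with 95% Wilson intervals and counts under each class). The blue bar is far above the grey bar only over 200 kb, where 18 of 19 genes had a peak, and its interval includes the grey value in the other 4 classes.

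Most of the peaks were intronic. Introns held 250 of 313 peaks (79.9%, interval 75.1 to 83.9%), against 73.4% of the 20913 peaks in protein-coding genes and 68.5% of the 24019 nuclear peaks. Another 34 peaks (10.9%) fell between 1000 nt before and 100 nt after the start of some annotated transcript, 14 (4.47%) in a 3′UTR and 15 (4.79%) in another exon. Over peaks in protein-coding genes these shares were 10.5, 8.98 and 6.46%. Peaks near a transcript start were mostly inside introns too: with no promoter class, the intronic share was 87.2%. With introns of any transcript given first place it was 99.4%, which also counts most 3′UTR and exon peaks as intronic. Intergenic peaks made up 5.32% of the list, but the rule for assigning peaks to genes leaves none here. On the opposite strand of the 58 genes there were 4 peaks, in the 3 genes CDH1, PRKCZ and MAGI3, beside 313 on their own strand. Summed over all 20163 protein-coding genes, there were 1833 opposite-strand peaks, in 994 genes, beside 22257 on the own strand.

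Peak height, the authors' signal value for the pooled libraries, had a median of 22 in these genes (quartiles 17 and 30) and 23 over the list (quartiles 18 and 33). Heights ran from 6 to 471. Because the list holds no RNA levels, stronger binding and more RNA cannot be told apart when heights of different genes are compared. A height of 100 or more was reached by 7 of the 313 peaks (2.24%), against 3.03% of peaks in protein-coding genes and 3.85% of nuclear peaks. These 7 lay in EPB41L2 (471 and 111), ERBIN (128, 109 and 104), CTNND1 (109) and AFDN (106), all of them genes with at least 10 peaks. The 10 tallest peaks were completed by CTNNB1 with 88 and DLG1 with 80 at 2 peaks.

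**Figure D3:**
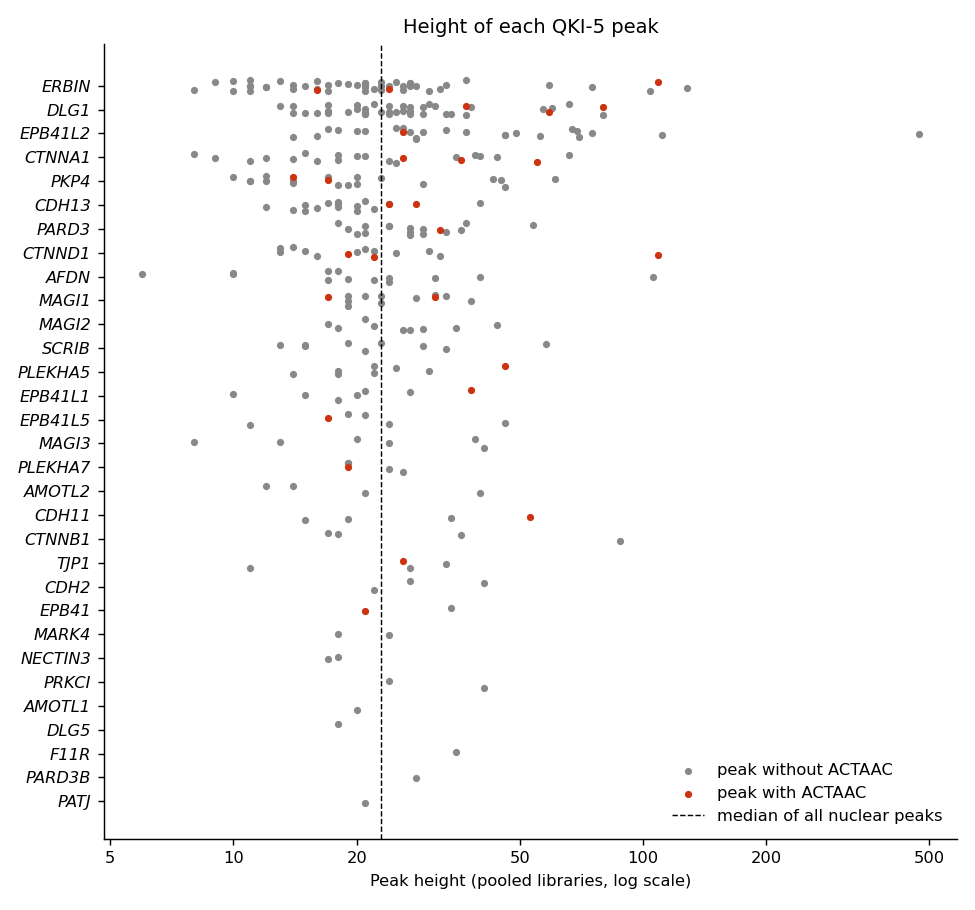
Height of every QKI-5 peak (log scale, 1 point per peak) in the 31 genes, ordered by number of peaks, with peaks that hold ACTAAC in red and the median of all nuclear peaks, 23, as a dashed line. The EPB41L2 peak of height 471 stands alone to the right, and red points lie on both sides of the line.

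ACTAAC was found on the peak strand in 27 of the 313 peaks (8.63%, interval 6.00 to 12.3%), against 10.5% of peaks in protein-coding genes and 10.1% of all nuclear peaks. It occurred on the opposite strand of 0.639% of the same peaks, in 0.958% of windows of equal length placed 500 nt to the 5′ side and in 1.60% of those to the 3′ side. A further 11 peaks (3.51%) held ACTAAT only. The 27 peaks lay in 16 genes, 27.6% of the 58 (interval 17.8 to 40.2%), against 7.83% of protein-coding genes. The 58 genes also had peaks more often and were longer, and the part of this in the count of genes was not tested. The 27 peaks with ACTAAC had a median height of 26 and a median width of 73 nt. For the other 286 peaks these were 21 and 61 nt. Over the whole list, the median height was 27 for nuclear peaks with ACTAAC and 23 for all nuclear peaks. In 5 genes an ACTAAC peak had its centre in an intron within 250 nt of a splice site: CTNNA1, PARD3, DLG1, MAGI1 and EPB41L5.

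Distance to the nearest splice site of a protein-coding transcript was measured for the 287 peaks whose centre was in no exon of such a transcript. Its median was 2550 nt, and over all protein-coding genes it was 2340.5 nt. Within 250 nt there were 34 peaks (11.8%, interval 8.60 to 16.1%), 16 upstream and 18 downstream of the exon, against 10.7% over all protein-coding genes. The part of these that lay beside a cassette exon was larger. It came to 22 peaks, or 7.67% (interval 5.12 to 11.3%), where it was 3.20% over all protein-coding genes. The annotation lists a cassette exon for 74.1% of the 58 genes and for 45.4% of protein-coding genes, so these genes offer more such exons, and the part of this in the result was not tested.

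Among the cadherins, the transmembrane proteins that bind neighbouring cells, 3 of 5 genes had peaks. CDH13, which encodes T-cadherin, a cadherin held by a lipid anchor, had 17 peaks of height 12 to 40, all intronic and 11 of them in intron 1 of its Ensembl canonical transcript. CDH11, a cadherin typical of mesenchymal cells, had 4 peaks in intron 2, and the tallest of them, at 53, held ACTAAC. CDH2, which encodes N-cadherin, had 3 peaks in intron 2 with heights of 22, 27 and 41. The epithelial cadherin genes CDH1 (E-cadherin) and CDH3 (P-cadherin) had none on their own strand.

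The catenins link cadherins to actin or stabilise them at the membrane, and 3 of 4 had peaks. CTNNA1, encoding α-catenin, the actin-linking member, had 21 peaks of height 8 to 66, of which 14 lay in intron 9 and 10 of those within 2 kb. This group began beside exon 9. Peaks of height 11, 18 and 55 had centres 46, 106 and 222 nt downstream of this 153-nt exon, and the tallest of the 3 held ACTAAC. It is no cassette exon of the annotation. CTNNB1, encoding β-catenin, had 3 peaks in intron 13, of which the tallest reached 88, and 1 peak of height 18 in intron 14, none with ACTAAC.

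CTNND1 encodes p120 catenin, which keeps cadherins at the surface, and had 14 peaks on 66.3 kb. In intron 1 there were 9 peaks of height 13 to 32. The other 5 stood together at exon 20, an 87-nt cassette exon at chr11:57583387-57583473, with heights of 22, 109, 25, 15 and 16 in transcript order. The peak of height 109 ran from the intron into the exon, and its ACTAAC and the doubled motif of the peak before it were both upstream of the exon. All 14 CTNND1 peaks also lay in the span of another protein-coding gene of the annotation on the same strand, as did the single F11R peak, and cannot be assigned to 1 gene by position.

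Nectins are cell adhesion molecules of the immunoglobulin family, and afadin, encoded by AFDN, ties them to actin. NECTIN3 had 2 peaks of height 18 and 17, and NECTIN1 and NECTIN2 had none. AFDN had 13 peaks, which fell into 3 places. Intron 8 held 7 peaks of height 6 to 40 with centres 13 to 804 nt upstream of exon 9, a 45-nt cassette exon at chr6:168294542-168294586. Intron 16 held peaks of height 22, 106 and 24 with centres 10, 120 and 355 nt downstream of exon 16, a 21-nt cassette exon at chr6:168314083-168314103. The remaining 3 peaks, of height 10 to 19, were in intron 21. The peak centres thus lay upstream of one AFDN cassette exon and downstream of another, and none of the 13 held ACTAAC. This holds for the centres only: the peak of height 40 covered the whole 45-nt exon, and that of height 22 the whole 21-nt exon.

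Tight junction genes had 5 peaks, on 2 of 9 genes. TJP1, encoding ZO-1, the scaffold that links claudins and occludin to actin, had 4 peaks on 270 kb. Exon 28, the last exon, held 2 of them in its 3′UTR with heights of 26 and 11, and the taller of these held ACTAAC. The other 2 were in introns 1 and 18 with heights of 27 and 33. The nearest of the 4 to the 240-nt cassette exon of TJP1 was 5232 nt away. F11R, encoding the junctional adhesion molecule JAM-A, had 1 peak of height 35 in exon 4, a 147-nt cassette exon. The claudin genes CLDN1, CLDN4 and CLDN7, OCLN, TJP3 and the cingulin genes CGN and CGNL1 had none.

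Of the 6 genes grouped with desmosomes, PKP4 alone had peaks. It encodes plakophilin 4, also called p0071, an armadillo protein of the p120 family found at adherens junctions as well as desmosomes. Its 20 peaks, of height 10 to 61, were all intronic: 7 were in intron 9, 6 in intron 7 and 4 in intron 6. Peaks of height 10 and 20 lay 261 and 176 nt upstream of exon 20, a 129-nt cassette exon at chr2:159533251-159533379. DSP, DSG2, DSC2, PKP2 and PKP3, which encode desmoplakin, a desmoglein, a desmocollin and 2 plakophilins, had no peak.

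In the Par complex, which marks the apical side, PARD3 had 17 peaks of height 18 to 54. PARD3 is the scaffold that brings atypical protein kinase C to cell junctions. Intron 2, which is 179 kb long, held 11 of its peaks, and 4 of these stood within 2 kb. A peak of height 32 in intron 17, the only one of the 17 with ACTAAC, had its centre 53 nt upstream of exon 18, a 45-nt cassette exon at chr10:34625127-34625171. PRKCI, which encodes an atypical protein kinase C, had 2 intronic peaks of height 41 and 24, and PARD3B 1 of height 28. PARD6B and PRKCZ had none. The Crumbs complex had 1 peak in all, of height 21, in intron 27 of PATJ.

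The genes grouped with the Scribble complex, which marks the basolateral side, held 102 of the 313 peaks, on 4 of 6 genes. ERBIN was placed in this group as a relative of Scribble: it encodes a protein of the same LAP family that binds the receptor ERBB2. The 50 ERBIN peaks had heights of 8 to 128. Intron 21, of 17217 nt, held 23 of them and intron 1 held 17, of which 13 stood within 2 kb. The tallest 2 peaks, 128 and 109, followed exon 21 by 278 and 461 nt, and the second of them held ACTAAC. Further along intron 21, 5 peaks of height 11, 20, 16, 75 and 8 lay in or beside a 144-nt cassette exon at chr5:65364705-65364848 that the canonical transcript leaves out. A last peak, of height 23, stood 102 nt downstream of exon 25, a 75-nt cassette exon.

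DLG1, encoding the scaffold SAP97, had 42 peaks of height 13 to 80 spread over 9 introns and 1 exon of its canonical transcript. Introns 4, 17 and 24 held 8 each. A peak of height 80 with ACTAAC had its centre 25 nt upstream of a 3281-nt last exon of another transcript, with the motif ahead of the 3′ splice site of that exon. The other peak of height 80 was deep in intron 5, 8216 nt from the nearest splice site, without the motif. SCRIB had 9 peaks of height 13 to 58 on 24.9 kb, and those of height 13 and 15 had centres 31 and 225 nt upstream of its exon 16, a 63-nt cassette exon. DLG5 had 1 peak of height 18. LLGL1 and LLGL2, the Lgl proteins of the complex, had none.

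**Figure D4:**
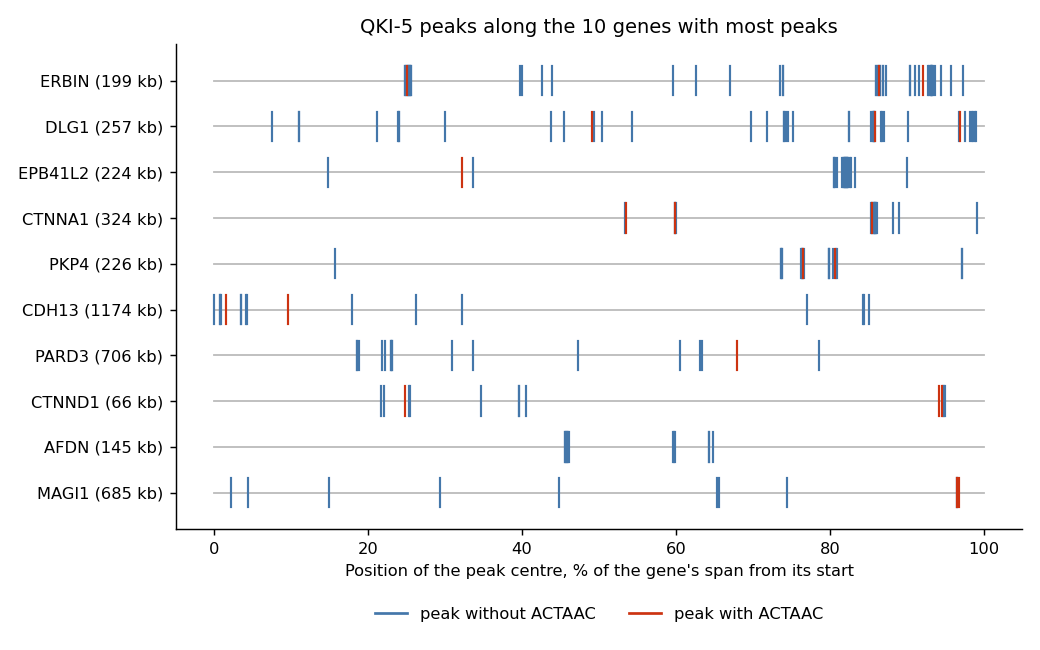
Position of each QKI-5 peak centre along the 10 genes with most peaks, as a percentage of the gene's span from its start, with peaks that hold ACTAAC in red. Most peaks of EPB41L2 and CTNNA1 crowd into the last part of the gene, whereas those of DLG1 spread along it. CTNNA1 has 6 further peaks in intron 3, and 11 of the 17 PARD3 peaks lie in intron 2.

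The scaffolds that join these complexes to the membrane or to actin had peaks in 7 of 8 genes. All 3 MAGI genes, which encode inverted membrane-associated guanylate kinases, had peaks: MAGI1 12, MAGI2 9 and MAGI3 6. The heights ran from 17 to 38 in MAGI1. Its peaks with ACTAAC had heights of 31 and 17, and the lower one lay 184 nt downstream of exon 18, a 201-nt cassette exon at chr3:65361420-65361620. PLEKHA5 and PLEKHA7 encode proteins with pleckstrin homology domains, and PLEKHA7 binds p120 catenin at the zonula adherens. They had 8 and 5 peaks, 6 and 5 of them in intron 3. The tallest, of height 46, was the PLEKHA5 peak with 2 motifs. Angiomotins bind Crumbs complex proteins and YAP, and AMOTL2 had 4 peaks of height 12 to 40, AMOTL1 had 1 of height 20 and AMOT had none.

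Band 4.1 proteins tie membrane proteins to spectrin and actin, and 4 of 5 genes had peaks. EPB41L2 had 25 peaks of height 14 to 471, and 14 of them stood within 2 kb around exon 13, a 63-nt cassette exon at chr6:131201284-131201346. The peak of height 471, taller than 99.7% of nuclear peaks, had its centre 128 nt downstream of this exon. Intron 13, of 1893 nt, held 11 peaks, the next tallest at 111, and intron 12 held 6. EPB41L1 had 7 peaks of height 10 to 38, and those of height 15 and 18 lay 131 and 211 nt downstream of exon 15, a 411-nt cassette exon. EPB41 had 2 peaks, of which the one of height 34 lay 139 nt downstream of a 51-nt cassette exon and the one of height 21, with ACTAAC, lay in a 450-nt cassette exon. EPB41L5 had 6 peaks, all in intron 16, among them a peak of height 17 with ACTAAC 19 nt upstream of an exon of another transcript. Of the polarity kinases STK11, MARK1 and MARK4, only MARK4 had peaks, of height 24 and 18, both within 250 nt of an 80-nt cassette exon.

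Counted by gene, 13 of the 58 had a peak in or within 250 nt of a cassette exon (22.4%, interval 13.6 to 34.7%), against 1.86% of protein-coding genes. They were AFDN, CTNND1, DLG1, EPB41, EPB41L1, EPB41L2, ERBIN, F11R, MAGI1, MARK4, PARD3, PKP4 and SCRIB. Among genes that have a cassette exon in the annotation, it was 13 of 43 (30.2%, interval 18.6 to 45.1%), and 375 of 9149 (4.1%) over all protein-coding genes. The 58 genes also had peaks more often and were longer, with a median span of 120.5 kb against 27.2 kb. What these differences add to the count was not tested. At the 6 exons drawn in the plot of peaks around cassette exons, the tallest peak was downstream of the exon in EPB41L2 and at the 21-nt exon of AFDN, upstream of it in PARD3, and over at least part of it in CTNND1, in ERBIN and at the 45-nt exon of AFDN.

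**Figure D5:**
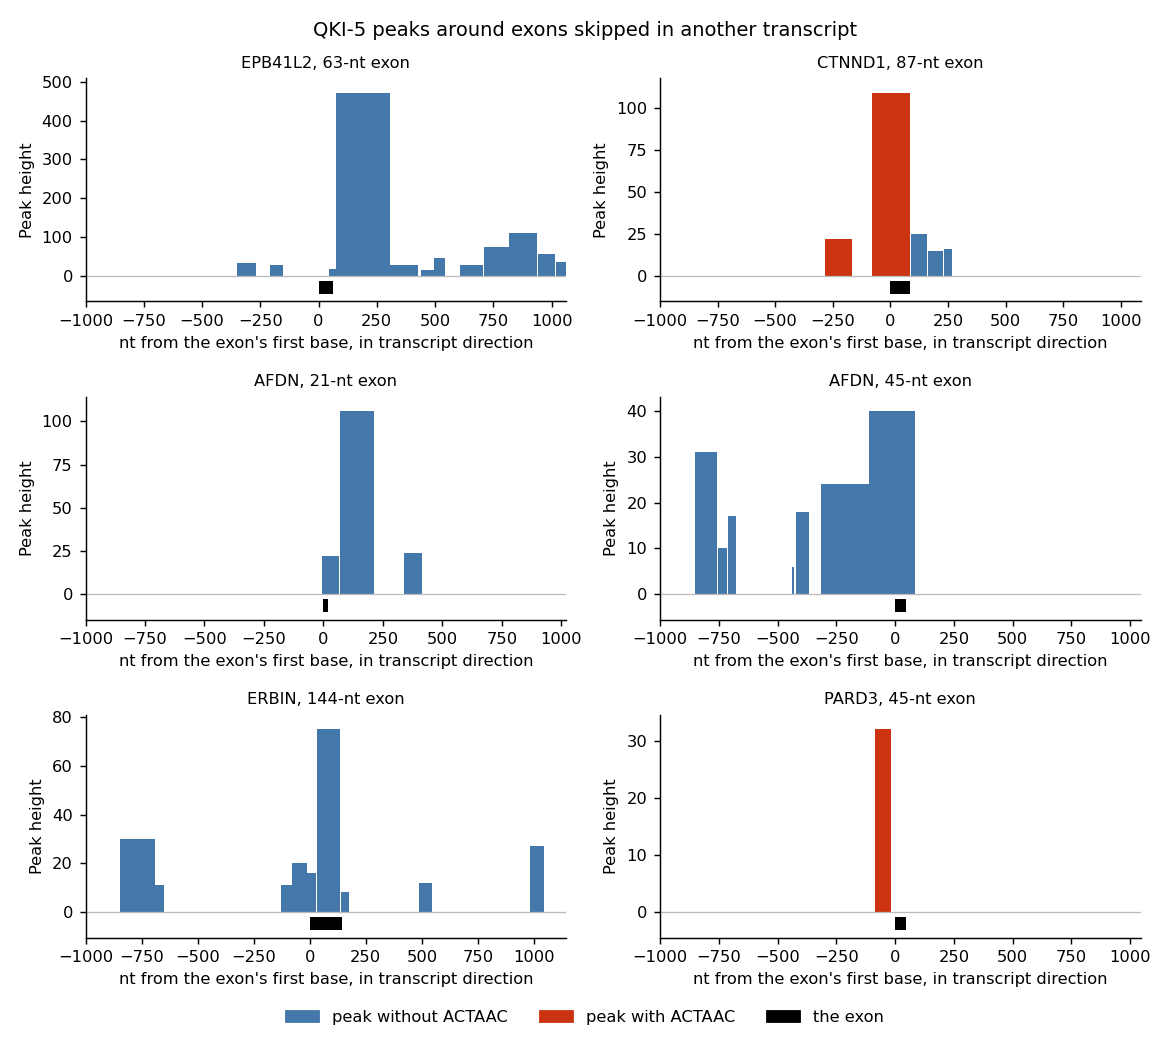
Heights of the QKI-5 peaks within 1000 nt of 6 cassette exons, drawn in transcript direction from the first base of the exon (black bar), with peaks that hold ACTAAC in red and a separate height axis for each exon. Other exons are not drawn. The tallest peak lies after the exon in EPB41L2 and at the 21-nt AFDN exon, before it in PARD3, and over at least part of it in CTNND1, in ERBIN and at the 45-nt AFDN exon.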

How the data were processed

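The data were QKI-5 HITS-CLIP libraries, 7 immunoprecipitates and 2 inputs. The authors mapped reads to hg19, collapsed duplicates by barcode, pooled the libraries and called peaks per strand with MACS2. The submitters' processing notes list cutadapt 1.3, TopHat2 2.0.10 and MACS2 2.1.1.20160309. The deposited height is a signal, a whole number per peak that was read as the study names it. The list does not give library depth.

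Peaks were assigned and classed by centre with GENCODE release 44 on GRCh37, using transcripts of the peak's strand, with promoters before UTRs, then other exons, introns and intergenic sequence, leaving out 18 mitochondrial peaks. Positions are counted from 1. A cassette exon is one that another protein-coding transcript of the gene splices over. All values are descriptions, with 95% Wilson intervals that cover counting error only. Members, gene lists and the rule for named genes (most peaks, tallest peaks, ACTAAC within 250 nt of an exon, 1 or more per group) were chosen with earlier results of these data known. Lookups were tested on simulated data. Python 3.11.15, numpy 2.4.6, scipy 1.17.1, pysam 0.24.0 and matplotlib 3.10.9 were used.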

Additional observations from a re-analysis of the deposited data

How the results depend on the processing

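No paired analysis was possible because the libraries were pooled before peaks were called. The number of genes with a peak was 31 by summit or by any overlap, 29 with only peaks in a single protein-coding gene and 27 with only peaks at or above the list's median height. The last filter cut the 313 peaks to 150. Merging touching peaks left 313, and merging peaks within 50 nt, added after the data were seen, left 230. The intronic share of 79.9% became 99.4% with introns first, 87.2% with no promoter class and 91.1% with only protein-coding transcripts, so it depends on the class order and the annotation. It stayed at 79.9% with transcripts of either strand, also added later. The share with ACTAAC ranged from 6.39% around the summit to 12.1% with ACTAAT included. It reached 15.0% when each peak was widened by 50 nt on each side, an addition made after the data were seen that lengthens the sequence searched. With windows 200 nt away, ACTAAC occurred in 2.56 and 3.19% of them. The share within 250 nt of a splice site, 11.8%, was 6.27% within 100 nt and 18.8% within 500 nt, as narrower and wider limits must give, and 12.2% by the summit. The median height without ERBIN was 22. Pooling leaves the spread between libraries unknown.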

Other observations

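Among 69 other junction and polarity genes, listed for comparison, 18 had a peak (26.1%, interval 17.2 to 37.5%), near the 23.6% of protein-coding genes. At least 10 peaks lay on 5 of them (7.25%, interval 3.13 to 15.9%), against 2.79% of protein-coding genes. These 5 were LMO7 with 46 peaks, MARK3 with 40, VCL with 34, MARK2 with 19 and SYMPK with 12. VCL encodes vinculin, which binds actin and α-catenin at adherens junctions, and its peaks reached a height of 155. LMO7 encodes an afadin-binding protein, and its peaks reached 76. MARK2 and MARK3 encode polarity kinases of the Par-1 family, with heights of up to 59 and 63. LMO7, MARK2, MARK3 and VCL also had a peak in or within 250 nt of a cassette exon. That was 4 of the 69 (5.8%, interval 2.28 to 14.0%), against 1.86% of protein-coding genes.

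Of the 19 cassette exons of the junction and polarity genes with a peak within 250 nt, 17 had a length that is a multiple of 3 (89.5%, interval 68.6 to 97.1%). The share was 70.3% over all 155 cassette exons of the 58 genes and 57.7% over those of all protein-coding genes. Some of the 19 are alternative forms of 1 exon, as in MAGI1 and EPB41. Over all protein-coding genes, 70.0% of the 580 cassette exons with a peak within 250 nt had such a length.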
